A study of Mus musculus with 10 samples.

Results

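The genes described here build, sense and clear cholesterol in the mouse hippocampus. They are 28 genes taken by name from a table of 52636 gene rows, and each name matched 1 row. The list holds 18 genes for enzymes of synthesis, 5 that control the pathway and 5 for sterol transfer, turnover and efflux. It holds no lipoprotein uptake receptor. Levels were compared between Tshr-/- mice, which lack the receptor for thyroid-stimulating hormone, and wild-type mice, with 5 libraries of each genotype. All mice were of the C57BL/6 strain and 3 months old, and the question asked by the study concerned spatial learning and memory. The labels say that the 5 libraries of a genotype are biological replicates. They do not say which part of Tshr was deleted, whether the allele is absent from every tissue, how many animals a library holds, or whether thyroid hormone was given.

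Brain cholesterol is made almost wholly within the brain, because lipoproteins do not pass the blood-brain barrier, and much of it lies in myelin. Synthesis starts from acetyl-CoA, passes through mevalonate and the isoprenoid farnesyl diphosphate, and closes the sterol ring at lanosterol, which later enzymes trim to cholesterol. When membrane sterol is low, Scap carries the SREBP transcription factors (Srebf1, Srebf2) from the endoplasmic reticulum to the Golgi, where they are cut and released to switch on the genes of synthesis. Insig1 and Insig2 hold Scap back when sterol is plentiful. Neurons dispose of cholesterol through Cyp46a1, which makes 24-hydroxycholesterol. Oxysterols of this kind activate the liver X receptors (Nr1h2 among them), which induce the exporters Abca1 and Abcg1. Thyroid hormone is known to raise SREBP-2 in liver.

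The level of each gene is given as FPKM, fragments scaled to gene length and by a factor per library. In this unit genes can be compared per length. The median ratio of a library's genes to their geometric means over the libraries was 1.00379 in every library. The deposited values were therefore already on a common median-ratio scale. Mean and SD are over the 5 libraries of a genotype. Every difference between genotypes subtracts the wild-type mean of log2(FPKM + 0.1) from that of Tshr-/-, so a positive value means higher in Tshr-/-, and has its standard error (SE) from limma, a linear model fitted to 15471 genes with a mean of at least 0.5 FPKM. The threshold for calling a gene was a p of 0.05 after Benjamini-Hochberg adjustment over all those genes.

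The libraries held 23899650 to 33529811 reads rebuilt from the FPKM values. Tshr itself was near the detection limit, with 7 reads in the 5 Tshr-/- libraries and 32 in the 5 wild-type libraries (exact permutation p = 0.0556, where the smallest possible is 0.00794). Libraries 1 to 5 had 0, 0, 0, 5 and 2 reads in Tshr-/- and 9, 12, 7, 2 and 2 in wild type, so the genotypes overlapped. With 1 library left out, the exact permutation p ranged from 0.0317 to 0.0794. It was 0.0317 when wild-type library 4, wild-type library 5 or Tshr-/- library 4 was left out. Markers of hippocampal neurons were expressed in all libraries, at a summed 1014 to 1892 FPKM over 11 genes. Thalamus and habenula markers stood apart in Tshr-/- libraries 1 and 2 and wild-type libraries 2 and 5, at a summed 156, 256, 91.8 and 133 FPKM over 11 genes against 22.2 to 57.3 in the other 6. Choroid plexus markers reached a summed 2264 FPKM in Tshr-/- library 4 and 3.97 to 89.7 in the others. In bulk tissue, fewer cells of a type and less RNA per cell cannot be told apart.

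Promoters are shown first for 3 genes. Nsdhl and Lss had the smallest p-values among the enzymes, and Hmgcs1 carries the only sterol regulatory element that was found. Each run is the 250 bases before the RefSeq transcription start, 5′ to 3′ on the plus strand of GRCm38.p6, on which all 3 genes lie. The intervals are chrX:72918271-72918520 for Nsdhl, chr10:76531355-76531604 for Lss and chr13:119690101-119690350 for Hmgcs1. Capitals mark CCAAT boxes, the site of the factor NF-Y, read on either strand, and in Hmgcs1 also the sterol regulatory element.
Nsdhl: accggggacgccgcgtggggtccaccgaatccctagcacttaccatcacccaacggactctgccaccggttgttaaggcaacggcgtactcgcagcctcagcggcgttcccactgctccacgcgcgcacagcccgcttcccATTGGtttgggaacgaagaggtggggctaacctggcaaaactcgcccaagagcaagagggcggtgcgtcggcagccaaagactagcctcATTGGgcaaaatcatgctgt
Lss: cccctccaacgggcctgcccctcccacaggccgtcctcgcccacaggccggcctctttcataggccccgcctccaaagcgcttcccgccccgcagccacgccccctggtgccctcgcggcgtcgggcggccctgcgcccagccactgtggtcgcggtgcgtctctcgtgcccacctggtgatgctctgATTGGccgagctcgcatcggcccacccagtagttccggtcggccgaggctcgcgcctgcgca
Hmgcs1: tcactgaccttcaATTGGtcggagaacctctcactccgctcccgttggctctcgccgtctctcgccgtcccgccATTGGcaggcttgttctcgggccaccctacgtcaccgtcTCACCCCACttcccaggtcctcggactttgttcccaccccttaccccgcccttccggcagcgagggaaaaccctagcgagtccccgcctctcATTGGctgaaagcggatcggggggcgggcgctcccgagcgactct

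A RefSeq promoter was matched for 23 of the 28 genes, 15 of them for enzymes. Fdps, Fdft1, Sqle, Stard4 and Abcg1 had none in the table. The sterol regulatory element was searched as TCACNCCAC on both strands. It lay in 1 of 15 enzyme promoters, that of Hmgcs1 at position -137 from the start, against 1.05% of all 32851 promoters of the same length. CCAAT lay in 13 of the 15 enzyme promoters (86.7%), and in 8 of them more than once, against 33.8% and 10.1% of all promoters. Mvk had 5 CCAAT boxes, the most of any of these promoters. The enzyme promoters without one were those of Acat2 and Dhcr7. The GC box GGGCGG, bound by Sp1, lay in 14 of 15 enzyme promoters (93.3%) against 32.7% of all. Of the 8 promoters of control and turnover genes, 5 held CCAAT and 4 held GGGCGG. No matches of different motifs overlapped in these promoters. Such matches describe letters in a window, and other spellings of the elements were not searched.

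Levels in wild-type hippocampus spanned a wide range. Srebf2, the SREBP of cholesterol synthesis, was the most abundant at 57.2 ± 6.47 FPKM. Cyp46a1, the neuronal cholesterol 24-hydroxylase, followed at 47.2 ± 2.32. Hmgcs1, the synthase that makes HMG-CoA, stood at 35.1 ± 4.10 and was the most abundant enzyme of synthesis. The libraries of these 3 genes did not overlap with those of the next gene in the order. The place of Srebf2 rests on its deposited length of 4989 bases, against 7184 exonic bases in the GENCODE vM21 annotation. A longer length would lower its FPKM, and the order at that length was not computed. From Insig1 (20.2 ± 3.51) down to Mvk (8.88 ± 1.01), each gene overlapped with the next, so the order of neighbours among these 15 genes is not fixed. The ends of this set did not overlap, with the lowest library of Insig1 (16.3) above the highest of Mvk (9.91). A lower set ran from Dhcr7 (5.85 ± 0.492) to Abca1 (4.02 ± 0.261), again with overlap between neighbours. Lss, which closes the sterol ring, had a mean below all of these at 2.83 ± 0.170, and its highest library (3.08) reached the lowest of Stard4 (3.05). This rank of Lss rests on the 10787 exonic bases by which its reads were divided, the longest length among these genes. Fdps was lowest, at 0.139 ± 0.0312.

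**Figure D1:**
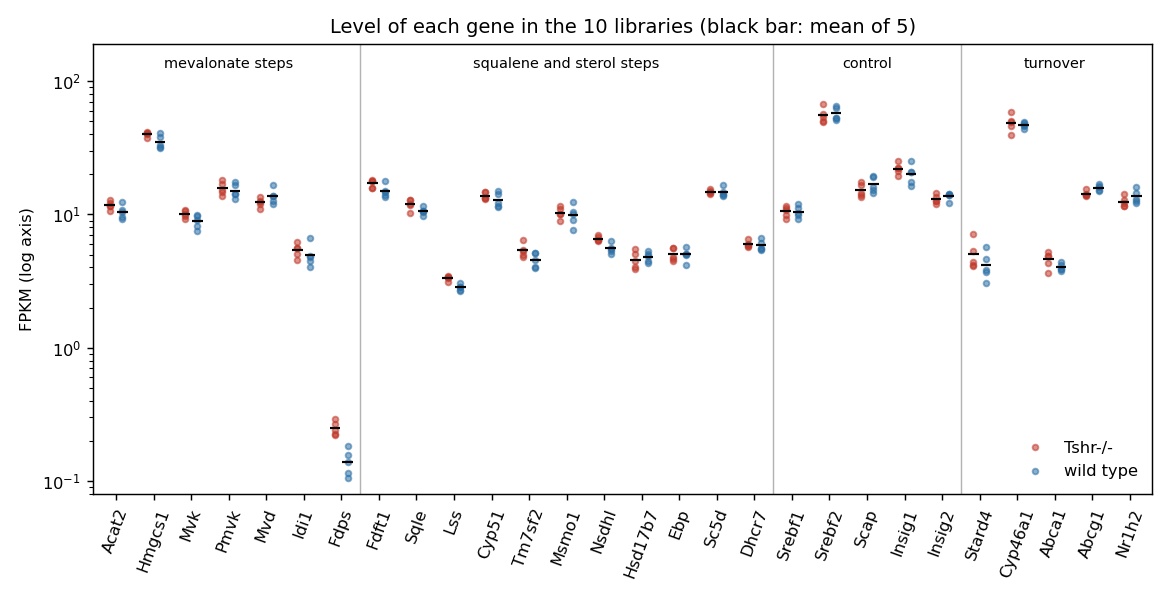
FPKM on a log axis for the 28 genes in each library, Tshr-/- in red and wild type in blue, with a black bar at each mean of 5. Srebf2, Cyp46a1 and Hmgcs1 lie highest, Fdps lies far below the others, and for most genes the 2 genotypes overlap.

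The level of Fdps, farnesyl diphosphate synthase, needs care. It had only 11 to 36 reads per library and did not pass the filter on low values. In the GENCODE vM21 annotation, 1124 of its 4208 exonic bases are shared with Gm43738, a gene record on the same strand that was listed at 0 to 0.0144 FPKM. The sources used here do not give how reads in shared exons were assigned, so the level of Fdps is uncertain. Within these limits, Tshr-/- libraries 1 to 5 had 0.292, 0.266, 0.226, 0.222 and 0.240 FPKM and wild-type libraries 1 to 5 had 0.140, 0.155, 0.114, 0.182 and 0.105. Every Tshr-/- library was above every wild-type library, with a ratio of means of 1.79. The share of all genes that separate in this way with no filter was not counted. In a fit of 34046 genes with no filter, the log2 difference was 0.55 ± 0.17 (SE) and did not pass (limma adjusted p = 0.378).

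Of the 27 genes that passed the filter, none was called in either direction, against 2 of 15471 genes in all (0.0129%). At an unadjusted p below 0.05, limma gave 7 higher in Tshr-/- and 1 lower. All 7 that were higher are enzymes of synthesis, and the lower one is Abcg1. Over all tested genes the shares at that level were 4.65% higher and 8.38% lower. Limma voom on the rebuilt reads called none of the 27 and 0.0582% of all tested genes. At an unadjusted p below 0.05 it gave 9 higher and 0 lower, but it also set the median of all tested genes at 0.06 on the log2 scale, 0.07 above the median in limma, with 10.7% of all genes higher and 3.89% lower. The count of 7 was 4 when wild-type library 4 or one of Tshr-/- libraries 2, 3 and 5 was left out, 3 without wild-type library 1 and 2 without wild-type library 3. It was also 4 with thalamus or choroid plexus markers as a covariate. The median log2 difference was 0.07 over the 27 genes and -0.01 over all tested genes.

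The synthesis enzymes are given apart from the remaining genes. Of 17 tested enzymes, 15 had a higher mean in Tshr-/- and 2 a lower one, with a median log2 difference of 0.13. With thalamus markers as a covariate, or with Tshr-/- libraries 1 and 2 left out together (a choice made after the values were seen), 11 of the 17 were higher. Of the 10 control and turnover genes, 5 were higher and 5 lower, with a median of -0.02. Over all tested genes, 7227 were higher and 8244 lower. The difference between enzymes and the other genes was not tested.

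**Figure D2:**
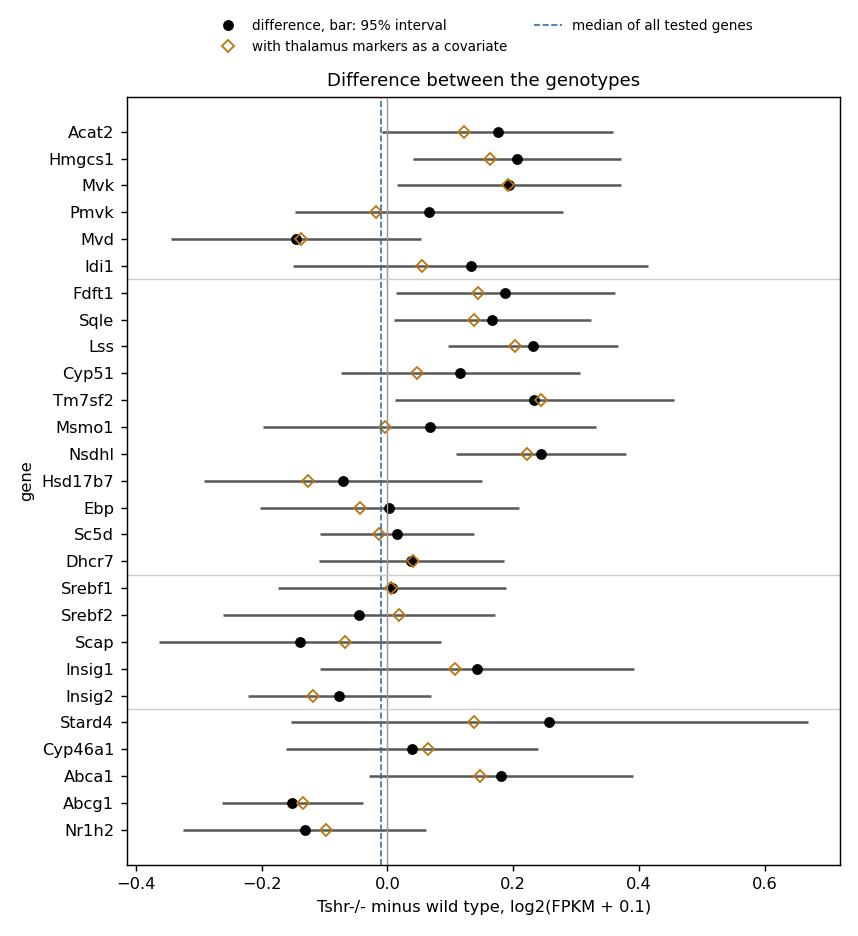
Difference between the genotypes on the log2(FPKM + 0.1) scale for the 27 tested genes, with 95% intervals as bars, orange diamonds for the fit with thalamus markers as a covariate, and a dashed line at the median of all tested genes (-0.01). Intervals of Nsdhl and Lss lie farthest above 0, that of Abcg1 lies below 0, and the diamonds of Pmvk, Msmo1, Ebp, Sc5d and Srebf2 lie on the other side of 0 from the points.

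The mevalonate steps come first in the pathway. Hmgcs1 condenses acetoacetyl-CoA with acetyl-CoA. It had 41.5, 40.002, 37.7, 41.0 and 41.1 FPKM in Tshr-/- libraries 1 to 5 and 31.5, 40.8, 31.9, 33.1 and 38.0 in wild-type libraries 1 to 5. Wild-type libraries 2 and 5 lay within the Tshr-/- range and the other 3 lay below it. The spread was larger in wild type (SD 4.10) than in Tshr-/- (SD 1.496), and the log2 difference of 0.21 ± 0.07 (SE) did not pass (limma adjusted p = 0.297). Acat2, a cytosolic thiolase that supplies acetoacetyl-CoA, had 11.8 ± 0.822 FPKM in Tshr-/- against 10.5 ± 1.25. Mvk, mevalonate kinase, had 10.1 ± 0.623 against 8.88 ± 1.01. Both overlapped between the genotypes.

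The later mevalonate steps had means on either side of wild type, none with an unadjusted p below 0.05. Pmvk, which adds the second phosphate, had 15.8 ± 1.74 FPKM in Tshr-/- against 15.1 ± 1.84. Its log2 difference of 0.07 became -0.02 with thalamus markers as a covariate. Mvd, the decarboxylase that follows, was the only enzyme of these steps with a lower mean in Tshr-/-, at 12.3 ± 0.953 against 13.7 ± 1.84. Its highest value, 16.7 FPKM, was in wild-type library 2. Idi1, the isomerase that readies isopentenyl diphosphate for chain building, had 4.51 to 6.24 FPKM in Tshr-/- against 4.03 to 6.63, so the wild-type libraries spanned the whole Tshr-/- range. The 95% intervals of the log2 difference were -0.15 to 0.28 for Pmvk, -0.34 to 0.05 for Mvd and -0.15 to 0.41 for Idi1.

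Among the squalene and sterol steps, Nsdhl and Lss were the 2 tested genes in which every Tshr-/- library lay above every wild-type library. Over all tested genes, 0.911% did so in this direction and 1.76% in the other. Nsdhl (ENSMUSG00000031349, chromosome X, 72918557 to 72958514, mm10) encodes the dehydrogenase that helps remove the methyl groups at carbon 4 of the sterol. It had 6.402, 6.95, 6.80, 6.45 and 6.37 FPKM in Tshr-/- libraries 1 to 5 and 5.33, 6.26, 5.09, 5.58 and 5.55 in wild-type libraries 1 to 5. Wild-type library 2 came closest to the Tshr-/- range, with a gap to the lowest Tshr-/- library (6.26 to 6.37) that was small beside the spread within a genotype. The log2 difference was 0.24 ± 0.06 (SE, limma adjusted p = 0.179).

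Lss (ENSMUSG00000033105, chromosome 10, 76531588 to 76557138) encodes lanosterol synthase. Its values were 3.40, 3.47, 3.10, 3.33 and 3.42 FPKM in Tshr-/- libraries 1 to 5 and 2.65, 2.88, 2.70, 2.86 and 3.08 in wild-type libraries 1 to 5. Tshr-/- library 3 (3.10) and wild-type library 5 (3.08) almost met. The log2 difference was 0.23 ± 0.06 (SE, limma adjusted p = 0.194). Nsdhl and Lss kept an unadjusted p below 0.05 in all 24 alternative fits, and neither was called in any. The 24 include median-ratio scaling, which all but repeats the main fit. With thalamus markers as a covariate, their log2 differences were 0.22 and 0.20. Oligodendrocyte markers as a covariate gave 0.24 and 0.23.

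**Figure D3:**
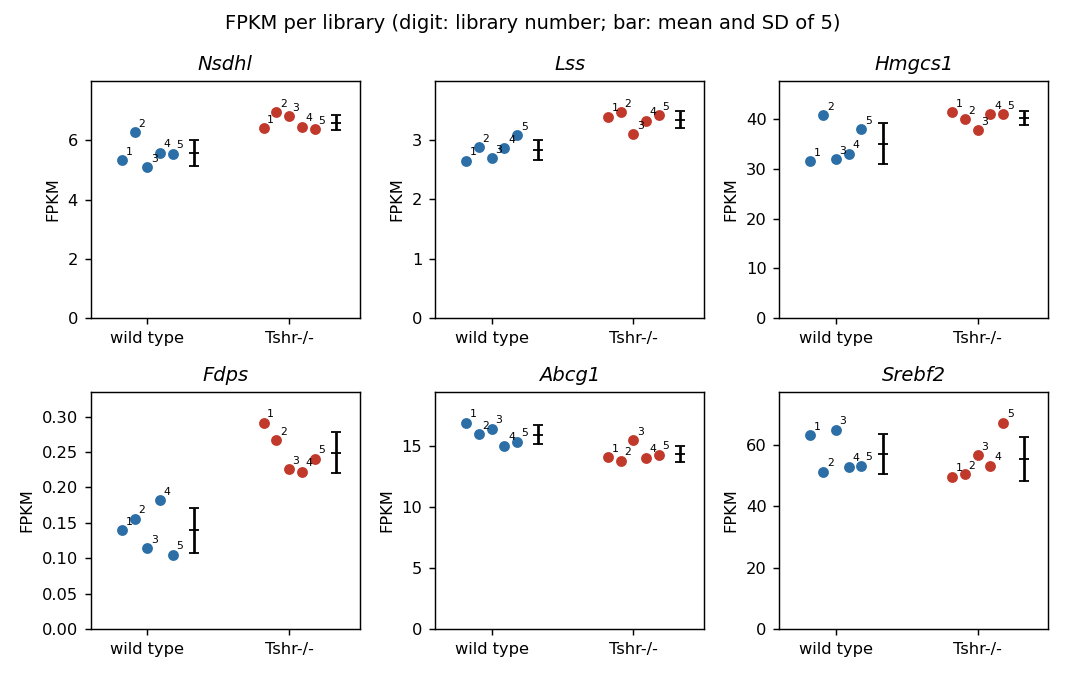
FPKM per library for Nsdhl, Lss, Hmgcs1, Fdps, Abcg1 and Srebf2 on axes that start at 0, with library numbers beside the points and bars for mean and SD of 5. Nsdhl, Lss and Fdps separate the genotypes, wild-type libraries 2 and 5 of Hmgcs1 lie near the Tshr-/- values, and Srebf2 overlaps fully.

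Fdft1, Sqle and Tm7sf2 had unadjusted p values below 0.05 and overlapping genotypes. Fdft1, squalene synthase, had 17.1 ± 1.17 FPKM in Tshr-/- against 15.0 ± 1.69, with wild-type library 2 at 17.8 inside the Tshr-/- range. It shares 774 of 4227 exonic bases with Ctsb on the opposite strand. The library kit does not mark strand and Ctsb stood at 76.7 to 89.5 FPKM, so reads from that stretch cannot be told apart. Sqle, squalene epoxidase, which admits oxygen to the pathway, had 11.9 ± 1.06 against 10.6 ± 0.670. Tm7sf2, a sterol reductase acting at carbon 14, had 5.38 ± 0.631 against 4.56 ± 0.575, and Tshr-/- library 5 was its highest at 6.43. It shares 532 exonic bases with Vps51 on the same strand. Log2 differences of the 3 genes were 0.19, 0.17 and 0.23, each with a limma adjusted p from 0.354 to 0.363.

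The other sterol enzymes had no unadjusted p below 0.05 in limma. Cyp51, which removes the methyl group at carbon 14, had 13.9 ± 0.839 FPKM in Tshr-/- against 12.9 ± 1.70. Msmo1, the oxidase that begins the removal of methyl groups at carbon 4, had 10.3 ± 1.03 against 9.93 ± 1.79. Hsd17b7, the ketoreductase that completes that removal, was the one sterol enzyme with a lower mean in Tshr-/-, at 4.59 ± 0.670 against 4.80 ± 0.409. Ebp, an isomerase that shifts a ring double bond, had 5.02 ± 0.541 against 5.01 ± 0.545. Sc5d, the desaturase after it, had 14.8 ± 0.444 against 14.7 ± 1.09. Dhcr7, which reduces 7-dehydrocholesterol, had 6.01 ± 0.341 against 5.85 ± 0.492. The 95% intervals for the last 3 were -0.20 to 0.21, -0.11 to 0.14 and -0.11 to 0.19 on the log2 scale.

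**Figure D4:**
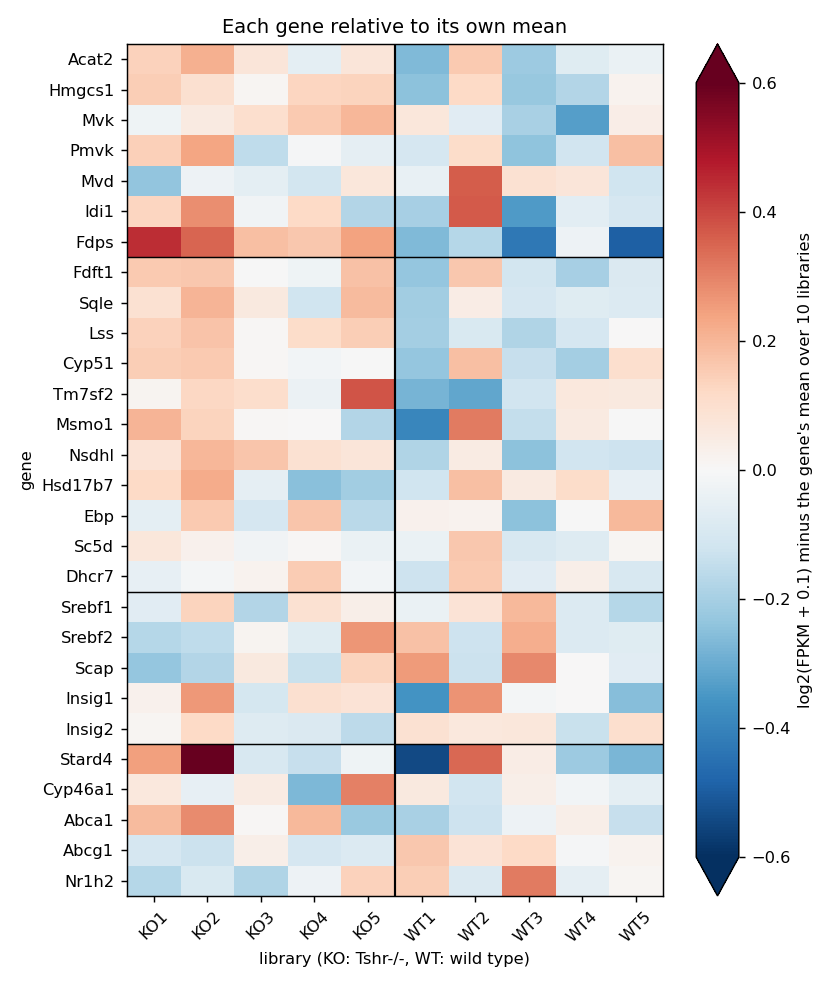
Each gene in each library as log2(FPKM + 0.1) minus its own mean over the 10 libraries, red above and blue below, with the genotypes split by the vertical line and the groups of genes by horizontal lines. Most enzyme rows are blue in wild-type libraries 1 and 3 and red in wild-type library 2, while Srebf2, Scap and Nr1h2 are red in wild-type libraries 1 and 3.

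Many enzymes ranked the libraries of a genotype alike. Wild-type library 2 had the highest level of its genotype for 12 of 17 enzymes, and wild-type library 1 the lowest for 9. Over all tested genes these libraries were highest and lowest of the 5 for 19.5% and 14.01%. In Tshr-/-, library 2 was highest for 8 enzymes and lowest for 0, against 18.6% and 22.3% of all genes. The mean of the 17 enzymes, relative to all libraries on the log2 scale, was 0.07, 0.14, 0.01, 0.02 and 0.04 in Tshr-/- libraries 1 to 5 and -0.16, 0.11, -0.15, -0.07 and -0.01 in wild-type libraries 1 to 5. Of the wild-type libraries, 4 lay below all Tshr-/- libraries, and library 2 lay above 4 of the 5 Tshr-/- libraries.

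Markers of other tissue varied across the same libraries. Tshr-/- library 2 had the highest thalamus and habenula markers, 2.25 above the mean of all libraries, and the highest enzyme mean. Wild-type libraries 1, 3 and 4 had the lowest thalamus markers (-1.25, -1.13 and -1.39) and the lowest enzyme means. Wild-type library 5 was high in thalamus markers (1.28) with an enzyme mean of -0.01, and Tshr-/- libraries 3 to 5 were low (-0.70, -0.43 and -0.76) with enzyme means from 0.01 to 0.04. Hippocampal neuron markers were lowest in Tshr-/- libraries 1 and 2 (-0.47 and -0.51) and highest in wild-type libraries 1, 3 and 4 (0.42, 0.31 and 0.31). Of these 11 markers, all had a lower mean in Tshr-/- and 7 had an unadjusted p below 0.05, against 8.38% of all tested genes lower at that level. The part of tissue content in the enzyme levels was not tested beyond the covariate fits.

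Myelinating and astrocytic cells are the main sites of cholesterol synthesis in brain. The 15 oligodendrocyte markers had a summed level of 719 to 1283 FPKM in Tshr-/- and 759 to 1406 in wild type. Of them, 8 were higher and 7 lower in Tshr-/-, with none at an unadjusted p below 0.05 and none called by limma. The smallest p belonged to Mog, Gjb1 and Mbp, all myelin genes, with log2 differences of 0.24, -0.29 and -0.17. Tshr-/- library 3 had the lowest oligodendrocyte mean (-0.56) and an enzyme mean of 0.01. With these markers as a covariate, 7 genes were again higher and 1 lower at an unadjusted p below 0.05. The 12 astrocyte markers summed to 655 to 697 FPKM in Tshr-/- and 657 to 747 in wild type. Gfap, the intermediate filament protein of astrocytes, and Aldoc, an aldolase, had log2 differences of -0.28 and -0.16, and Fgfr3 had 0.09, with limma adjusted p values from 0.317 to 0.731. Of all 12, 6 were higher and 6 lower, with 0 and 2 at an unadjusted p below 0.05. Thalamus and habenula markers were higher for 11 of 11, meninges markers for 10 of 10, choroid plexus markers for 8 of 9, endothelial markers for 3 of 6, microglial markers for 2 of 8 and oligodendrocyte precursor markers for 1 of 7. None of the markers in these lists, from thalamus to oligodendrocyte precursor, was called by limma, and limma voom was not counted for them. They gave 6 higher and 3 lower at an unadjusted p below 0.05 in limma. All tested genes gave 4.65% higher and 8.38% lower at that level.

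**Figure D5:**
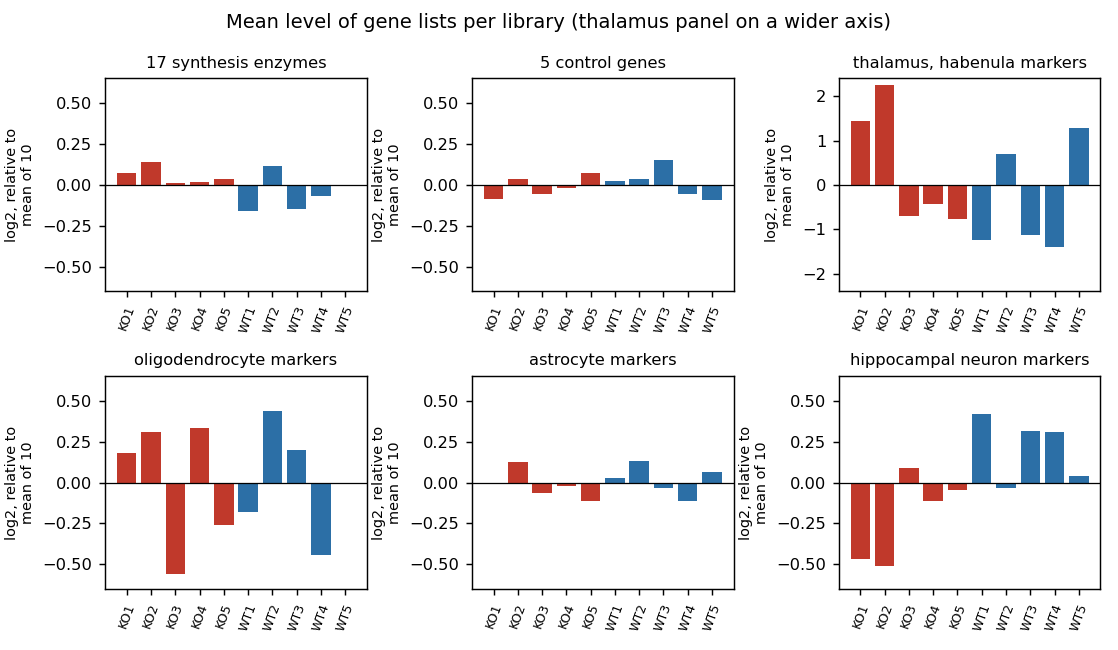
Mean log2 level of gene lists in each library relative to the mean of 10 libraries, Tshr-/- in red and wild type in blue, with a wider axis for thalamus and habenula. The enzymes are lowest in wild-type libraries 1 and 3, where thalamus markers are low and hippocampal neuron markers high, and the oligodendrocyte markers follow another order.

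Among the control genes, Srebf2 and Scap differed between the genotypes by less than their spread within a genotype. Srebf2 had 49.7, 50.5, 56.7, 53.4 and 67.4 FPKM in Tshr-/- libraries 1 to 5 and 63.3, 51.3, 65.1, 53.0 and 53.3 in wild-type libraries 1 to 5. High values lay in Tshr-/- library 5 and wild-type libraries 1 and 3. Its log2 difference was -0.04, with a 95% interval of -0.26 to 0.17, and its sign turned under quantile normalization (0.03) and with thalamus markers as a covariate (0.02). Scap, the escort of the SREBPs, had 13.5, 14.1, 16.6, 14.5 and 17.5 FPKM in Tshr-/- and 19.0, 14.6, 19.4, 15.9 and 15.2 in wild type, again highest in wild-type libraries 1 and 3. Its log2 difference was -0.14 (interval -0.36 to 0.08).

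In wild-type libraries 1 and 3, these regulators and many enzymes lay at opposite ends of the wild-type range. The pair held the lowest 2 wild-type levels for 7 of 17 enzymes (41.2%), namely Acat2, Hmgcs1, Idi1, Lss, Msmo1, Nsdhl and Sqle. The pair held the highest 2 for 0 enzymes, but for Srebf2, Scap, Nr1h2, Abcg1 and Cyp46a1. Over all tested genes it held the lowest 2 for 12.8% and the highest 2 for 19.8%. This pair of libraries was chosen after the values were seen.

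Insig1, itself a target of the SREBPs, varied more than Insig2. Insig1 had 19.4 to 25.1 FPKM in Tshr-/- against 16.3 to 25.3, with a log2 difference of 0.14 (interval -0.11 to 0.39). Insig1 was lowest in wild-type library 1 and highest in wild-type library 2, as Msmo1 was. Insig2 had 13.1 ± 0.994 against 13.8 ± 0.891, a log2 difference of -0.08 (interval -0.22 to 0.07). Srebf1, which chiefly drives fatty acid synthesis, had 10.5 ± 0.910 against 10.5 ± 1.07, a log2 difference of 0.01 (interval -0.17 to 0.19).

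Turnover and efflux genes did not share a direction. Abcg1, which exports sterol to lipoprotein particles, had 14.1, 13.8, 15.5, 14.04 and 14.3 FPKM in Tshr-/- libraries 1 to 5 and 16.9, 16.0, 16.4, 15.0 and 15.3 in wild-type libraries 1 to 5. Only Tshr-/- library 3 reached into the wild-type range. Without it the genotypes did not overlap, but that library was picked out after the values were seen. The share of all tested genes that separate without it was not counted. The log2 difference of -0.15 ± 0.05 (SE) did not pass (limma adjusted p = 0.264). Abca1, the exporter to lipid-poor apolipoproteins, had 4.90, 5.23, 4.30, 4.92 and 3.65 FPKM in Tshr-/- and 3.73, 3.92, 4.18, 4.39 and 3.88 in wild type. Its lowest value was in Tshr-/- library 5, and its 3 highest were in Tshr-/- libraries 1, 2 and 4, giving a log2 difference of 0.18 (interval -0.03 to 0.39). Both exporters are known targets of the liver X receptors, and their means differed in opposite directions. That contrast between the 2 genes was not tested.

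Nr1h2, the liver X receptor beta, had 12.5 ± 1.16 FPKM in Tshr-/- against 13.7 ± 1.62, with its highest level, 16.2, in wild-type library 3. Cyp46a1 had 48.8 ± 6.98 against 47.2 ± 2.32. Tshr-/- libraries 4 (39.7) and 5 (58.9) were its lowest and highest of all 10, and no such spread was seen in wild type (44.0 to 49.8). Stard4, a carrier that moves sterol between membranes, was the most variable of the 27 tested genes relative to its mean. It had 5.35, 7.14, 4.19, 4.08 and 4.41 FPKM in Tshr-/- libraries 1 to 5 and 3.05, 5.74, 4.63, 3.85 and 3.70 in wild-type libraries 1 to 5. Library 2 was highest in each genotype, and the log2 difference of 0.26 had an interval of -0.15 to 0.67. With thalamus markers as a covariate it was 0.14.

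Counting error made up a varying part of these spreads. For Nsdhl, with 333 reads in its lowest library, it was 5.48% of the value there, against a spread between libraries (SD over mean) of 4.02% in Tshr-/- and 7.91% in wild type. For Lss, with at least 668 reads, it was 3.87%, against 4.42% and 5.99%. For Ebp, with at least 222 reads, it was 6.71%, against 10.8% and 10.9%. For Hmgcs1, with at least 3366 reads, it was 1.72%, against a spread of 11.7% over the wild-type libraries. For Fdps, with 11 reads at the lowest, it was 30.2%.

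Other genes of the pathway, in lists that do not overlap with the 28, gave no call either. Of 79 tested genes, 39 were higher and 40 lower, limma called 0, and 2 were higher and 6 lower at an unadjusted p below 0.05. Limma voom called 0 as well. The median log2 difference of the 79 genes was -0.01. At an unadjusted p below 0.05, limma gave 4.65% of all tested genes higher and 8.38% lower.

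Among partners of the sterol enzymes, Tmem97, the sigma-2 receptor and an SREBP target, had 7.501 ± 1.18 FPKM against 6.06 ± 0.754 (log2 0.30, limma adjusted p = 0.307). Pgrmc1, a haem-binding partner of Cyp51, had 144 ± 9.35 against 133 ± 9.40, and Pgrmc2 had 24.5 ± 1.51 against 26.1 ± 2.12. Of the 9 genes in that list, 5 were higher and 4 lower. The list of SREBP cleavage and sterol-regulated degradation had 4 of 10 higher and 6 lower. Syvn1, a ubiquitin ligase of the endoplasmic reticulum, had 8.36 ± 0.544 against 9.42 ± 0.492 (log2 -0.17, limma adjusted p = 0.272), Erlin2 9.63 ± 0.959 against 8.999 ± 0.333, and March6 44.2 ± 2.66 against 42.1 ± 1.61.

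Fatty acid synthesis genes, targets of Srebf1, were higher for 9 of 14, none at an unadjusted p below 0.05. Fads1, a fatty acid desaturase, had 55.9 ± 3.76 FPKM against 51.8 ± 2.73, the elongase Elovl6 had 11.0 ± 1.36 against 12.1 ± 0.890, and fatty acid synthase, Fasn, 34.5 ± 2.69 against 37.6 ± 3.73. The isoprenoid side branches had 7 of 12 higher and none at an unadjusted p below 0.05. Coq2, an enzyme of ubiquinone synthesis, had 27.6 ± 2.75 against 30.3 ± 0.773, Nus1, of dolichol synthesis, 19.5 ± 1.14 against 21.1 ± 1.42, and Rce1, a protease of prenylated proteins, 6.63 ± 0.340 against 7.12 ± 0.818.

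Sterol transport and lipoprotein genes divided into 14 higher and 12 lower, with 1 and 4 at an unadjusted p below 0.05. Lcat, which esterifies cholesterol on lipoproteins, had 16.2 ± 1.76 FPKM against 19.7 ± 1.54 (log2 -0.29, limma adjusted p = 0.218). Gramd1b, a sterol carrier between plasma membrane and endoplasmic reticulum, had 21.7 ± 0.842 against 24.4 ± 1.29 (log2 -0.17, limma adjusted p = 0.230), and Osbpl11, an oxysterol-binding protein family member, 5.67 ± 0.332 against 6.30 ± 0.326. All 8 tested genes of the oxysterol and liver X receptor list had a lower mean in Tshr-/-, with a median log2 difference of -0.17 and none called by limma. Ch25h and Cyp39a1, of the same list, did not pass the filter on low values and had higher means in Tshr-/-. Ch25h had 0.302 ± 0.122 FPKM against 0.204 ± 0.0797, and Cyp39a1 0.392 ± 0.116 against 0.300 ± 0.0788. The receptor partner Rxrb had 25.8 ± 3.44 FPKM against 30.1 ± 4.14, and Mylip, a liver X receptor target that degrades lipoprotein receptors, 6.92 ± 1.36 against 7.88 ± 0.411. The mean of this list was lowest in Tshr-/- libraries 1 and 2 (-0.25 and -0.22), the libraries highest in thalamus markers, and the part of tissue content in it was not tested.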

How the data were processed

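Hippocampal RNA was sequenced in 5 libraries from Tshr-/- and 5 from wild-type mice. The authors deposited 1 table of FPKM values with gene lengths. The submitters' processing notes name HISAT2 2.0.5, featureCounts 1.5.0-p3 and mm10. Annotation release, handling of shared exons and library sizes are not given in the sources used here. Multiplying FPKM by gene length gave whole multiples of 1 step per library for 100% of values above 0 (tolerance 0.01 read), and these were taken as reads, 23899650 to 33529811 per library.

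Differences were tested with limma 3.58.1 in R 4.3.3 on log2(FPKM + 0.1), a pseudocount that understates changes of low genes, with a variance trend, for genes with a mean of at least 0.5 FPKM. P-values were adjusted by Benjamini-Hochberg over all 15471 genes. The steps were tested on simulated data with no variation in tissue content between libraries. The planted differences were larger than those of the tested members, so differences as small as theirs were not covered. Tshr was compared by a 2-sided exact permutation test. Exon overlaps came from GENCODE vM21, whose exonic length matched 94.3% of the gene records shared with the table and 25 of the 28 genes. The exceptions were Srebf2 (4989 bases deposited against 7184), Abcg1 (4066 against 7298) and Tm7sf2 (3484 against 4403). The members and lists were chosen with earlier results of these data known. All 28 genes are named, and in the other pathway, oligodendrocyte and astrocyte lists up to 3 with the smallest p. One gene that this rule names is not reported here. Marker lists for oligodendrocyte precursors, microglia, endothelium and meninges were also measured. Alternatives were pseudocounts of 1 and 0.01, other filters, scalings and gene sets, no variance trend, limma voom on the rebuilt reads, the replicate number as a block, marker covariates and each library left out.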

Additional observations from a re-analysis of the deposited data

Results flagged for a closer look

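Of 56 groups of 5 libraries looked at for the 28 genes, 2 had a library far from the other 4 by Dixon's test, and chance flags about 1 in 20. Wild-type library 4 had the lowest wild-type level of Insig2, at 12.2 FPKM against 14.01 to 14.3 in the other 4. Tshr-/- library 3 had the highest Tshr-/- level of Abcg1, at 15.5 FPKM against 13.8 to 14.3 in the other 4.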

How the results depend on the processing

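None of the 27 tested genes was called in any of 24 alternatives, and 18 of them kept the sign of their difference in all. Median-ratio scaling divided every library by the same 1.00379 and so all but repeated the main fit. Changes of filter, gene set or variance trend and the replicate block leave each log2 difference as it was, so they could not turn a sign. Fdps was tested in the fit with no filter alone. The 7 genes higher at an unadjusted p below 0.05 became 4 with the thalamus covariate, 4 with the choroid plexus covariate and 3 without Tshr-/- libraries 1 and 2 together, a choice added after the data were seen. With 1 library left out they ranged from 2 to 10. Limma voom, which raised the median of all tested genes, gave 0 lower at that level against 1. The count of genes with every Tshr-/- library below every wild-type library ranged from 0 to 1 with 1 library left out, and the exact permutation p of Tshr from 0.0317 to 0.0794.

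The sign of the log2 difference turned for 9 genes. The thalamus covariate gave Pmvk -0.018, Msmo1 -0.0046, Ebp -0.044, Sc5d -0.014 and Srebf2 0.019. The choroid plexus covariate gave Ebp -0.060, Dhcr7 -0.00069 and Srebf1 -0.014. Leaving out Tshr-/- libraries 1 and 2 together gave Pmvk -0.039, Msmo1 -0.022, Ebp -0.030, Sc5d -0.012, Srebf1 -0.012 and Srebf2 0.048. Quantile normalization gave Ebp -0.00082 and Srebf2 0.030, and limma voom gave Hsd17b7 0.0014 and Srebf2 0.026. Voom raised the median of all tested genes by 0.071 and every tested member by 0.061 to 0.090, and relative to that median Hsd17b7 stood at -0.059 and Srebf2 at -0.034, against -0.060 and -0.034 in limma, so these sign changes follow the common shift. With 1 library left out, the differences ranged from -0.022 to 0.15 for Msmo1, -0.059 to 0.051 for Ebp, -0.0072 to 0.057 for Sc5d, -0.035 to 0.057 for Srebf1, -0.12 to 0.0039 for Srebf2 and -0.032 to 0.11 for Cyp46a1. For the other settings the cause was not tested.

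Libraries with the same number did not pair, with correlations of their deviations of -0.06, 0.30, 0.08, 0.17 and -0.07, and 2 of 5 Tshr-/- libraries matched their own number best. With the replicate block, 7 of the 27 genes were higher and 1 lower at an unadjusted p below 0.05, and none of the 27 was called. Over all tested genes 3 were called in that fit. The Tshr p was 0.188 (exact permutation within pairs). Low read counts limit Fdps, at 11 to 36 reads per library, and Tshr, at 0 to 12. For Fdps, the assignment of reads in exons shared with Gm43738 is also not known.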
